A study of Saccharomyces cerevisiae with 8 samples.

Results

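The genes described here are the 137 nuclear genes that encode the protein subunits of the cytosolic ribosome of budding yeast, out of 6002 nuclear protein-coding genes in the sacCer3 (R64) annotation. They were chosen by name alone: RPL for the large subunit (76 genes), RPS for the small subunit (56 genes), and *RPP0*, *RPP1A*, *RPP1B*, *RPP2A* and *RPP2B* for the acidic P stalk (5 genes). All 137 have a ribosomal protein as their annotated product. Of these genes, 118 form 59 pairs of paralogues, an A and a B copy of the same protein, and 19 have a single copy. The promoter of a gene was taken as the window from 500 bp upstream to 100 bp downstream of its coding start, and a promoter peak is an ATAC-seq peak whose summit, its highest point, lies in that window.

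In exponentially growing yeast, ribosomal protein genes account for a large part of all RNA polymerase II initiation. Most of their promoters are bound by the general regulatory factor Rap1, which keeps nucleosomes away and recruits Fhl1 and its coactivator Ifh1, while a minority depend on Abf1 instead. Sfp1, Hmo1, and the TOR and protein kinase A pathways tie their transcription to nutrients. Since ATAC-seq uses a transposase that cuts DNA free of nucleosomes, such promoters are places where peaks can be looked for.

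The strains were derived from BY4741 (his3Δ1 leu2Δ0 met15Δ0 ura3Δ0) and numbered 4, with 2 independent clones each, giving 8 libraries and 8 separate peak lists. All strains carried foreign DNA: the human *HPRT1* locus, or *HPRT1R*, the same locus with its sequence reversed but not complemented. Each was present either as a centromeric episome with a *LEU2* marker, grown in SC–Leu, or integrated on chromosome XI at YKL162C-A, grown in YPD, so context and medium cannot be told apart, and no strain without a locus was analysed here. Cultures grew at 30 °C for 6 h before 30 min of tagmentation. Values for single libraries are given in 1 order throughout: *HPRT1* episome clones 1 and 2, *HPRT1* integrated clones 1 and 2, *HPRT1R* episome clones 1 and 2, and *HPRT1R* integrated clones 1 and 2.

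The lists hold 1029 to 1337 peaks each, and the caller's genome-wide background, which follows depth, was 4.97 to 6.93 fragments. The median promoter peak of a ribosomal protein gene was built from 24 to 27 fragments at its summit, and the exact Poisson 95% interval for a count of 26 runs from 17.0 to 38.1. At this depth, a promoter without a listed peak is one where none was detectable, not one shown to be closed. The integrated *HPRT1R* libraries stand apart, with 1337 and 1221 peaks at the lowest backgrounds (5.42 and 4.97 fragments), and they also gave the highest counts of ribosomal protein promoters below. Of the 137 promoter windows, 127 consist to at least 99% of 36-base stretches that occur once in the genome, and the lowest share was 89.2%, so few summits can fall in repeated sequence.

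The sequences below show the DNA under the results, 60 bases each, read 5′ to 3′ in the direction of the gene, from the RefSeq genome of R64, with sacCer3 coordinates. Capitals mark a match to the Rap1 core ACCCNNACA (or its reverse complement) in the first 2 sets, and to the Abf1 consensus in the third. The first set shows 5 members with high peaks in all 8 lists and a Rap1 core, followed by *RPP1B*, the stalk gene with a core, which was found in 7 lists.
RPL6B (chrXII:1028390-1028449, forward strand): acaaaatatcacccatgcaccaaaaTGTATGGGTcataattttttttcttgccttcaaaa
RPL33A (chrXVI:281743-281802, forward strand): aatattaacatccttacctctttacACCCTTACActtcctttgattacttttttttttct
RPS2 (chrVII:277204-277263, forward strand): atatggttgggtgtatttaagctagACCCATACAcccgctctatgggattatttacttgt
RPL19B (chrII:168012-168071, forward strand): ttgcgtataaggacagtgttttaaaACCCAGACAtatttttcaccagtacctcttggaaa
RPS4B (chrVIII:505964-506023, reverse strand): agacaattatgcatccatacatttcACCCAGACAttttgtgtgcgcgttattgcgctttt
RPP1B (chrIV:229607-229666, forward strand): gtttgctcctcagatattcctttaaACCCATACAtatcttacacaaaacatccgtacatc
The second set comes from a pair of paralogues that both hold a core, *RPS10A* with a peak in all 8 lists and *RPS10B* with none, and from *RPL40B* and *RPL8A*, the other genes with a core and no peak.
RPS10A (chrXV:866733-866792, forward strand): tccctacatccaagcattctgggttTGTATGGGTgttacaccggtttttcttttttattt
RPS10B (chrXIII:732199-732258, forward strand): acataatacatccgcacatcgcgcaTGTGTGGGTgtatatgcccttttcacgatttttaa
RPL40B (chrXI:618959-619018, reverse strand): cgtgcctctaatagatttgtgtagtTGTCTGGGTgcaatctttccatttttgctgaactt
RPL8A (chrVIII:36230-36289, reverse strand): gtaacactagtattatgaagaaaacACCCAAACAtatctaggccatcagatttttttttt
The third set holds the Abf1 consensus matches of the 3 genes in which such a match was found and no promoter peak was listed.
RPP1A (chrIV:310318-310377, reverse strand): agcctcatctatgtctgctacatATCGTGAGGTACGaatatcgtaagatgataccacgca
RPS28A (chrXV:649135-649194, reverse strand): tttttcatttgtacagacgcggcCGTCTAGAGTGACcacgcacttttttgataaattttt
RPS28B (chrXII:672927-672986, forward strand): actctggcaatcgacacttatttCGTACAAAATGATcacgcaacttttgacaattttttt

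Ribosomal protein genes had promoter peaks far more often than other genes in every library. The numbers with a peak were 81, 80, 79, 84, 80, 80, 96 and 90 of 137, which is 57.7% to 70.1%. Over all 6002 genes the share was 14%, 14.4%, 15.6%, 13.7%, 15.1%, 14.4%, 18.7% and 17.1% in the same order. Both integrated *HPRT1R* libraries were high for both gene groups, and the remaining 6 lay between 79 and 84. Genes for the proteins of the mitochondrial ribosome, a complex of the same function in another compartment, gave 6 to 12 of 67 genes, or 8.96% to 17.9%, near the share of all genes.

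**Figure D1:**
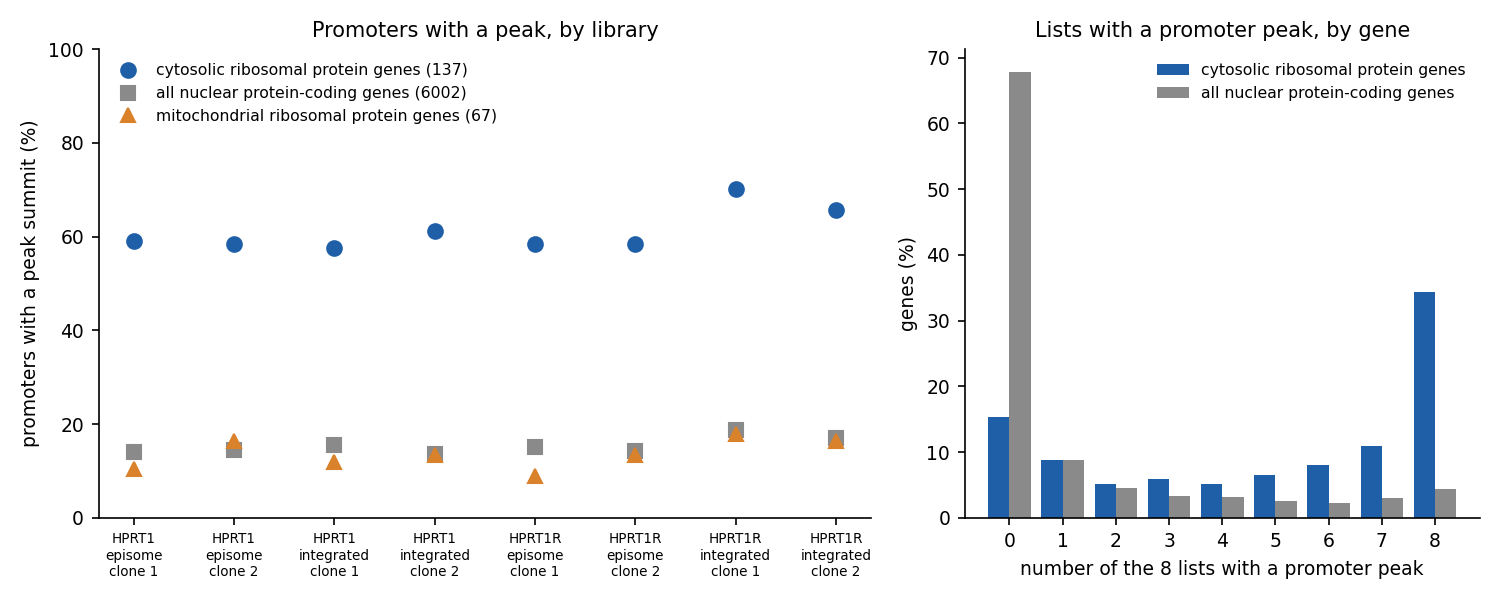
Left, percentage of promoters with a peak summit in each of the 8 libraries, for cytosolic ribosomal protein genes, all nuclear protein-coding genes and mitochondrial ribosomal protein genes. Right, percentage of genes by the number of lists with a promoter peak. The cytosolic set lies between 57.7% and 70.1% in every library, and 34.3% of it has a peak in all 8 lists against 4.37% of all genes.

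Across the lists, 47 of the 137 genes (34.3%) had a promoter peak in all 8, where the share of all genes was 4.37%. In at least 1 list, 116 genes (84.7%) had one, where the share of all genes was 32.1%. A further 69 genes were found in 1 to 7 lists, 15 of them in 7, and 21 were found in none. Of the mitochondrial ribosomal protein genes, 2 of 67 (2.99%) were found in all 8 lists. These counts depend on the definition of the promoter. With a summit assigned only to the nearest coding start, 24 genes (17.5%) remained against 2.05% of all genes, and with peaks of −log10 q of at least 5 it was 20 genes (14.6%) against 1.62%. With a window from 250 bp upstream to 50 bp downstream, no member was found in all 8 lists (0 of 137), against 19 of 6002 genes (0.317%). The order of members and all genes thus held for the wider windows. In this one the share of all genes is too low for a count over 137 to show an order.

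The height of the peaks differed less from that of other genes. Fold enrichment, the fragments at the summit over the local background, each plus 1 fragment, ranged from 2.34 to 7.70 over the members, and its median per library was 3.40 to 4.52, against 3.15 to 3.85 for the promoter peaks of other genes, with the members higher in 8 of 8 libraries. Ranked among all promoter peaks of the same list, the median member stood at the 59.5th to 69.2nd percentile, with a mean of 63.6 ± 3.24 (SD, n = 8 libraries). Among promoters found in all 8 lists, the 47 members had a median mean fold enrichment of 4.07, and all 262 such promoters 4.06. A height exists only for a peak that passed the caller's threshold, and these medians also require a call in all 8 lists. Both groups were thus selected for height, and how promoters without a listed peak compare cannot be read from them.

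Large subunit genes were found in all 8 lists in 24 of 76 cases (31.6%) and in none in 8. *RPL6B*, for the large subunit protein eL6, had the highest mean percentile of all members (90.8 ± 9.80, SD, n = 8). Its fold enrichment was 5.04, 4.54, 4.81, 3.86, 6.03, 4.84, 5.61 and 6.86, a mean of 5.20 ± 0.94 (SD, n = 8), with 26 to 40 fragments at the summit. The lowest value was in *HPRT1* integrated clone 2 and the highest in *HPRT1R* integrated clone 2, so the contexts overlap. *RPL33A* followed with 5.78, 4.66, 4.42, 4.57, 3.77, 4.54, 5.76 and 5.19, a percentile of 86.3 ± 11.1 (SD, n = 8). Its high and low libraries occurred in both contexts too. *RPL19B* (mean fold enrichment 4.54 ± 0.86), *RPL36B* (4.53 ± 0.87) and *RPL40A* (4.42 ± 0.55, SD, n = 8 each) were the other large subunit genes among the 10 highest. *RPL40A* encodes a fusion of ubiquitin with a ribosomal protein, and supplies both.

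Small subunit genes were found in all 8 lists in 22 of 56 cases (39.3%) and in none in 10. *RPS24B* stood highest among them, with fold enrichments of 5.33, 4.03, 4.16, 3.86, 5.88, 4.25, 4.83 and 5.36 (percentile 84.3 ± 9.97, SD, n = 8). The values of both contexts interleave. *RPS15*, *RPS4B* and *RPS2* also ranked among the 10 highest. *RPS2* is the yeast uS5 protein of the decoding site region, has a single copy, and had fold enrichments of 4.89, 3.78, 3.90, 5.72, 4.38, 4.84, 3.74 and 5.02. Its peak is shared with no neighbouring promoter, and its window, on chromosome VII from 277117 to 277716, holds both a Rap1 core and an Abf1 consensus match.

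The P stalk, which recruits and stimulates the translational GTPases, was the group with the fewest peaks: 1 of 5 genes was found in all 8 lists, 1 in 7 and 3 in none. *RPP2A* was found in all 8, with fold enrichments from 3.77 in *HPRT1* integrated clone 1 to 5.69 in *HPRT1R* integrated clone 2 (mean 4.59 ± 0.65, SD, n = 8), so that both ends of the range came from integrated strains. This summit is the one also assigned to *RPS15*, which lies head to head with *RPP2A* on chromosome XV with 719 bp between the coding starts, so that it cannot be given to 1 of these genes. *RPP1B* had a peak of 2.57 to 3.52-fold in 7 lists and none in *HPRT1* integrated clone 1. *RPP0*, which encodes the scaffold protein of the stalk, *RPP1A* and *RPP2B* had no promoter peak in any list, and their nearest summits lay 1888 to 3478 bp downstream of the coding start.

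In 4 cases, members shared a summit, each time lying head to head. Besides *RPP2A* and *RPS15*, *RPL13A* and *RPS16B* on chromosome IV and *RPL39* and *RPS22A* on chromosome X shared it in 8 lists. *RPL13B* and *RPS16A* on chromosome XIII, the paralogous arrangement of *RPL13A* and *RPS16B*, shared it in 6 lists, and each was found in 7. The mean fold enrichment of the shared peaks found in all 8 lists was 3.93 ± 0.44 for *RPL13A* and *RPS16B* and 3.68 ± 0.50 for *RPL39* and *RPS22A* (SD, n = 8 each). More generally, of the 47 members found in all 8 lists, 20 had a summit that lay in the window of another gene in every list, and 21 had one that never did. Over all 262 such promoters, 118 shared their summit in every list.

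Member summits lay well upstream of the coding start, and their median per library was slightly closer to it than that of other genes. The median offset was −298, −265.5, −271, −276, −260.5, −252.5, −259 and −260.5 bp, a mean of −267.9 ± 14.2 bp (SD, n = 8), and that of other genes was −304.5 to −278 bp. Members were closer in 8 of 8 libraries, by the median, but the choice of the window and of the nearest gene moves this value by more than its spread between libraries. The quartile nearer the coding start went the other way in every library, at −224.75 to −188.5 bp in members and −198 to −177 bp in other genes. Among promoters found in all 8 lists, the median offset was −296 bp for members and −299 bp for other genes. The positions were not sharp. For a gene found in all 8 lists, the summits of the 8 libraries spanned 68 to 266 bp, with a median span of 170 bp, against 178 bp for all such promoters. Summits past the promoter window inside a member's gene were listed for 0 to 2 of 137 genes per library, against 2.73% to 3.46% of the other genes. These shares were not adjusted for gene length, which sets how much sequence lies past the window.

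**Figure D2:**
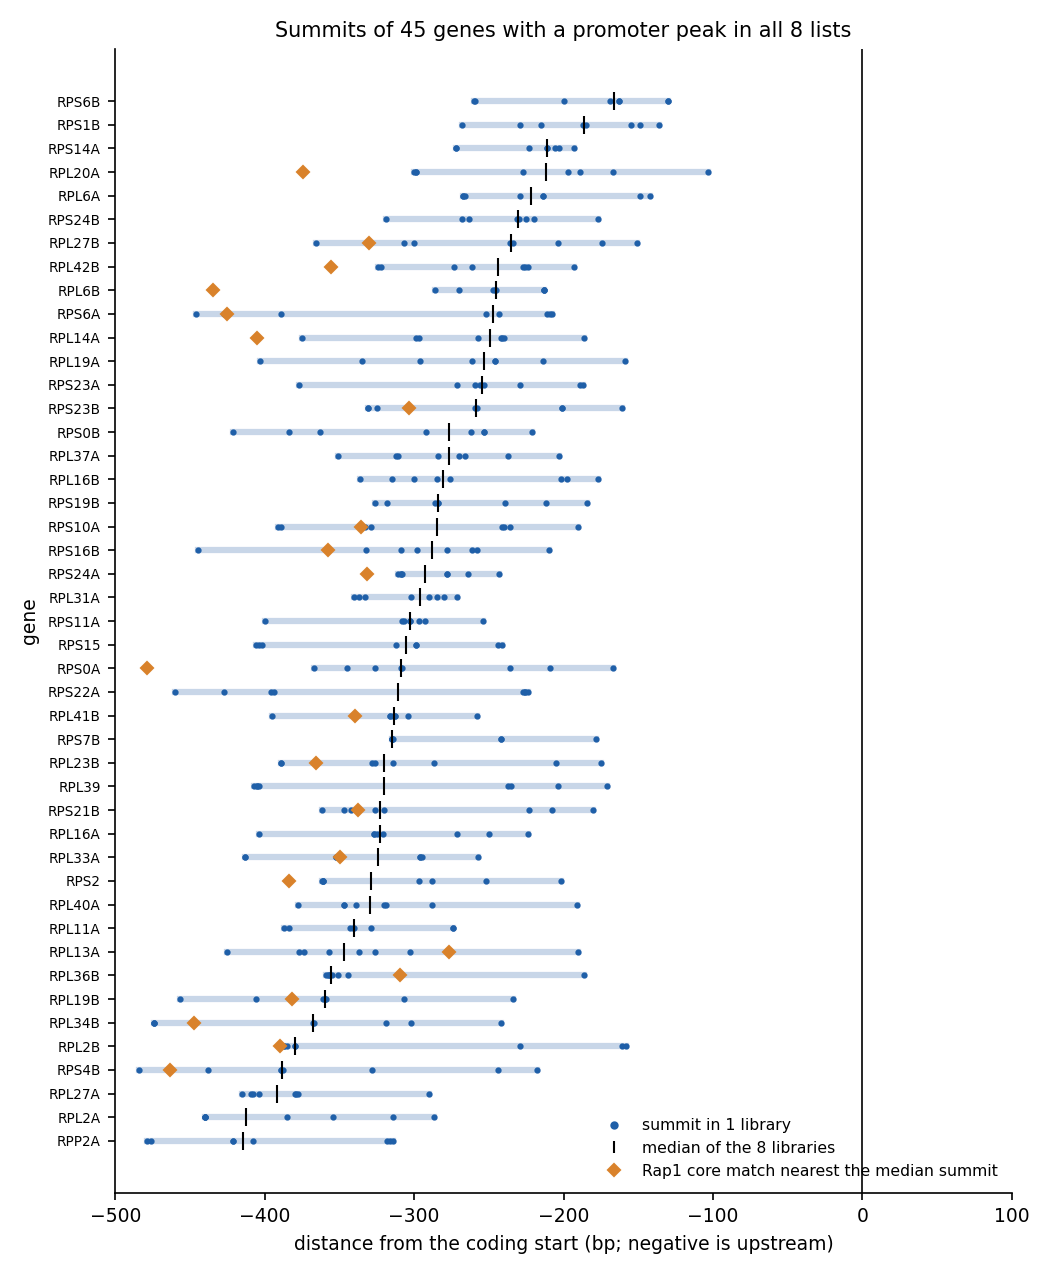
Distance of the summit from the coding start in bp, with negative values upstream, for 45 of the 47 ribosomal protein genes with a promoter peak in all 8 lists. Dots are single libraries, black ticks the median, grey-blue bars the range, and orange diamonds the centre of the nearest Rap1 core match, which lies upstream of the median summit in 20 of the 22 genes drawn with one.

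The Rap1 core was searched on both strands of all 6002 windows of 600 bases, together with an Abf1 consensus, the Reb1 core TTACCCG, and the RRPE core AAAATTTT and PAC core GCGATGAG of ribosome biogenesis genes. The Rap1 and Reb1 cores share the letters ACCC, so 1 stretch of DNA can match both. The Rap1 core was found in 54 of 137 member windows (39.4%), against 6.10% of all windows and 2 of 67 mitochondrial ribosomal protein genes. It was found in 35 of 76 large subunit, 18 of 56 small subunit and 1 of 5 stalk genes, the last being *RPP1B*. The Abf1 consensus went the other way, with 11 of 137 (8.03%) against 16.5% of all windows, and so did the Reb1 core, with 7 of 137 (5.11%) against 10.2%, and the PAC core, with 1 of 137 (0.730%) against 5.06%. The RRPE core was as frequent in members, at 13.9%, as in all windows, at 13.1%.

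Windows with a Rap1 core had more peaks. Of the 54 members with a match, 23 (42.6%) had a promoter peak in all 8 lists and 3 (5.56%) in none, while of the 83 without one these numbers were 24 (28.9%) and 18 (21.7%). The same order was seen in other genes, at 29 of 312 (9.29%) with a match and 186 of 5553 (3.35%) without. Of the 29, however, 10 share a summit with a member and 19 do not. The shares without the genes that share a summit were not computed. A member without a core was still found more often than another gene with one. For the members, the order depended on the stretch searched. From 250 bp upstream to 50 bp downstream, a Rap1 core was found in 1 of 47 members with a peak in all 8 lists. It was found there in 8 of 69 members in 1 to 7 lists and in 3 of 21 in none. Among the 11 members with an Abf1 consensus, *RPS2* alone (9.09%) was found in all 8 lists, against 46 of 126 (36.5%) without one. In other genes the order was the opposite, at 93 of 978 (9.51%) with a match and 122 of 4887 (2.50%) without. These matches are letters in a window and do not show binding. A window without a match can still hold a site with other letters.

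The core lay mostly on the upstream side of the summit in the members. In the 23 genes found in all 8 lists with a match, the match nearest the median summit lay 54.5 bp from it by the median (9.5 to 189 bp). It was within 100 bp in 17 of 23 genes and upstream of the summit in 21 of 23. The exceptions were *RPL13A*, whose summit is shared with *RPS16B*, and *RPL36B*. *RPP1B*, in the first set of sequences, was found in 7 lists and is not among the 23. Its core, with the first base at −274 bp, lay downstream of its median summit at −292 bp. The match was on the strand of the gene in 19 of 23. In the 29 other genes of this kind the distance was much the same, with a median of 51 bp and 19 of 29 within 100 bp. There it was upstream in 9, but 10 of these 29 share a summit with a member, seen there from the opposite side. Among the 19 that share none, it was upstream in 8. The first base of all 62 matches in member windows lay at a median of −322.5 bp, with quartiles of −397 and −271 bp.

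The structure of the genes went with detection as well. Many yeast ribosomal protein genes carry an intron near the start of the coding sequence, which is rare in other yeast genes. Of the 89 members with a coding sequence in 2 or more parts, 40 (44.9%) had a promoter peak in all 8 lists and 5 had none in any. Of the 48 with an unbroken coding sequence, 7 (14.6%) were found in all 8 lists, namely *RPL11A*, *RPL41B*, *RPP2A*, *RPS15*, *RPS1B*, *RPS2* and *RPS22A*, and 16 in none. In other genes the shares in all 8 lists were 4.37% with and 3.64% without a split coding sequence. A Rap1 core was found in 44 of the 89 (49.4%) and in 10 of the 48 (20.8%). The distance to the upstream gene moved with detection too: with a gap of at least 500 bp, 42 of 99 members (42.4%) were found in all 8 lists, and with a smaller gap 5 of 38 (13.2%). In other genes the shares were 170 of 2459 (6.91%) and 45 of 3406 (1.32%), so the gap went with detection there too, by a larger ratio. Within the larger gaps, the shares were 35 of 65 for split and 7 of 34 for unbroken coding sequences in the members, and 8 of 65 (12.3%) and 162 of 2394 (6.77%) in other genes. The part that Rap1 cores, introns and gaps have in each other's counts was not tested.

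The 21 members with no promoter peak in any list fell into groups by their nearest summit. In *RPL24A*, *RPL24B*, *RPL32*, *RPS26A*, *RPS26B*, *RPS29A*, *RPS29B* and *RPS8B*, it lay 500 to 1000 bp upstream of the coding start in at least 5 lists. *RPS8B* was the closest case, with offsets of −536, −599, −517, −598, −654, −508, −591 and −656 bp, just outside the window, while its paralogue *RPS8A* was found in 3 lists at a median of −492 bp, just inside it. In *RPL9B* and *RPS25B*, the nearest summit lay at this distance upstream in 3 and 4 lists. In 11 genes, *RPL18B*, *RPL22A*, *RPL40B*, *RPL8A*, *RPP0*, *RPP1A*, *RPP2B*, *RPS10B*, *RPS22B*, *RPS28A* and *RPS28B*, the nearest summit lay over 1000 bp from the coding start in every list, on either side.

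A window reaching 1000 bp upstream, tried after these distances had been seen, held a summit in all 8 lists in 67 members (48.9%) and in 10.3% of all genes. The same 11 genes had no summit in it in any list. These include *RPP1A*, *RPS28A* and *RPS28B*, whose Abf1 consensus matches make up the third set of sequences, and *RPL40B*, *RPL8A* and *RPS10B*, which hold a Rap1 core. A core was therefore present in windows without any listed peak.

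Paralogous copies encode nearly the same protein from different loci, so their promoters can be compared directly. Of 59 pairs, 10 had a promoter peak of both copies in all 8 lists, among them *RPL2*, *RPL6*, *RPL16*, *RPL19*, *RPL27*, *RPS0*, *RPS6*, *RPS23* and *RPS24*. In 24 pairs exactly 1 copy was found in all 8 lists, which was the A copy in 13 and the B copy in 11. In 4 pairs, *RPL24*, *RPS26*, *RPS28* and *RPS29*, neither copy was found in any list. As classes, the copies did not separate: 23 of 59 A copies (39.0%) and 21 of 59 B copies (35.6%) were found in all 8 lists, and the A copy was found in more lists in 20 pairs, the B copy in 22. Identical 36-base stretches between the windows of both copies occurred in 8 of 59 pairs.

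In all, 4 pairs split completely, with the A copy in all 8 lists and the B copy in none. *RPL40A*, of the ubiquitin fusion, had fold enrichments of 4.15, 3.40, 4.16, 4.43, 5.13, 4.69, 4.36 and 5.02, and the nearest summit to *RPL40B* lay 3670 to 3844 bp downstream of its coding start. *RPS10A* had 4.59, 3.28, 3.90, 3.72, 3.92, 3.22, 3.11 and 4.35, and the summits nearest to *RPS10B* lay at least 10451 bp away. *RPS22A* had 3.11 to 4.52 in the peak it shares with *RPL39*, and those nearest to *RPS22B* lay at least 15067 bp away. In the stalk, *RPP2A* was found in all lists and *RPP2B* in none. *RPL11*, *RPL14* and *RPL37* (A copy in 8 lists, B in 1) and *RPS21* (B copy in 8, A in 1) came close to such a split, and *RPP1* was split the other way, with *RPP1B* in 7 lists and *RPP1A* in none. A peak just under the caller's threshold and no peak at all look alike here, so the size of these differences is unknown.

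**Figure D3:**
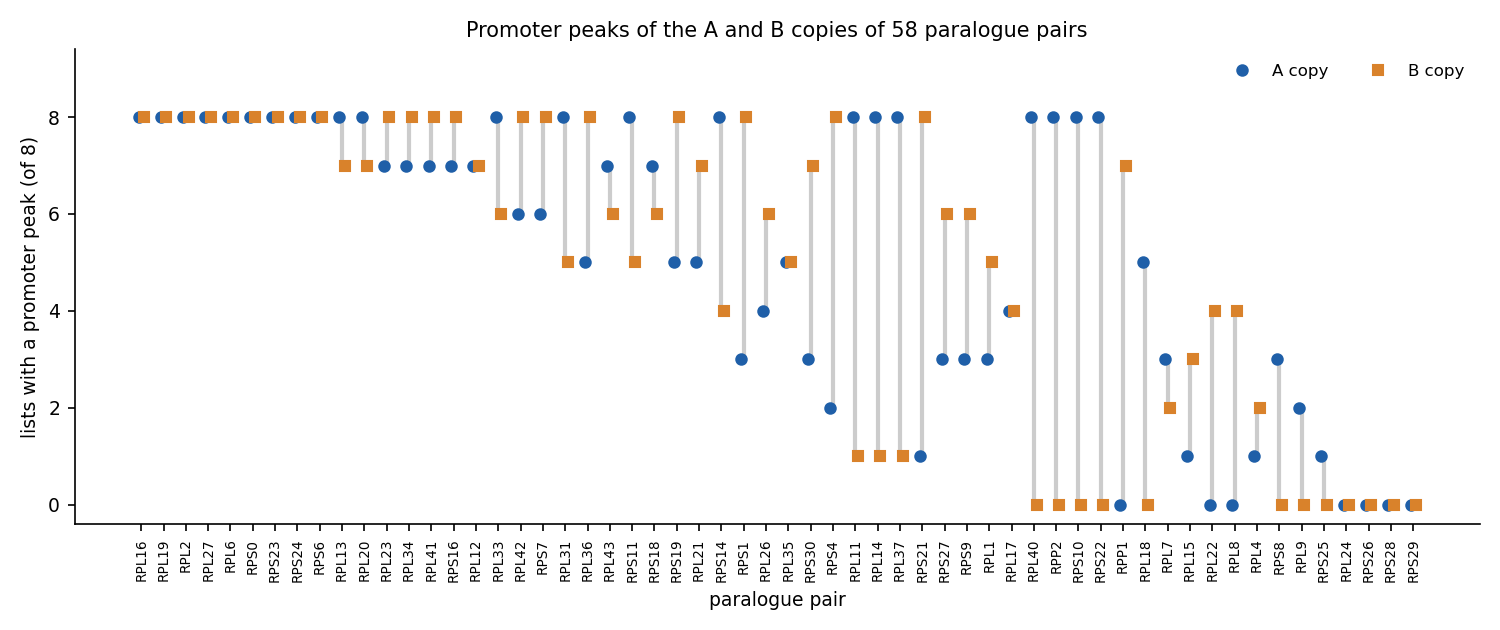
Number of lists, of 8, with a promoter peak of the A copy (circles) and the B copy (squares) for 58 of the 59 paralogue pairs, joined by a line. In 9 of these both copies are at 8, in 4 both are at 0, and *RPL40*, *RPP2*, *RPS10* and *RPS22* join 8 to 0.

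Where both copies had a peak in every list, their heights could be compared within each library, which cancels depth. *RPL6* differed most. *RPL6A* had fold enrichments of 2.67, 3.03, 2.86, 3.57, 2.56, 2.64, 2.65 and 3.01, lower than *RPL6B* in 8 of 8 libraries. The log2 ratio of A over B was −0.84 ± 0.37 (SD, n = 8), with 18.9 ± 3.27 fragments at the *RPL6A* summit and 34.5 ± 4.38 at that of *RPL6B*, over equal local backgrounds. *RPL6* was the only one of the 10 pairs in which 1 copy was higher in all 8 libraries. A Rap1 core was found in the window of *RPL6B* and not in that of *RPL6A*. Of the 10 pairs, 9 held a core in 1 copy only, and the copy with the core had the higher mean fold enrichment in 6 of them and the higher mean fragments in 5.

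The other pairs lay closer together. The log2 ratio of *RPL2A* over *RPL2B* was −0.28 ± 0.38, of *RPL16* 0.27 ± 0.22, of *RPS6* 0.22 ± 0.35, of *RPS23* −0.22 ± 0.22 and of *RPS0* 0.21 ± 0.34 (SD, n = 8 each). *RPL16A* was higher in 7 libraries, and *RPS23B* in 6, with equal values in the remaining 2. Small ratios were found as well, −0.05 ± 0.39 for *RPL19* and 0.07 ± 0.31 for *RPL27*. In 3 of 10 pairs, *RPL6*, *RPL16* and *RPS23*, the mean ratio exceeded its SD between libraries. The sign for *RPL2* depended on the local background, which was 8.53 fragments at *RPL2A* and 5.79 at *RPL2B* by the median: in fragments alone, the log2 ratio was 0.19 ± 0.32, with *RPL2A* the higher copy.

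**Figure D4:**
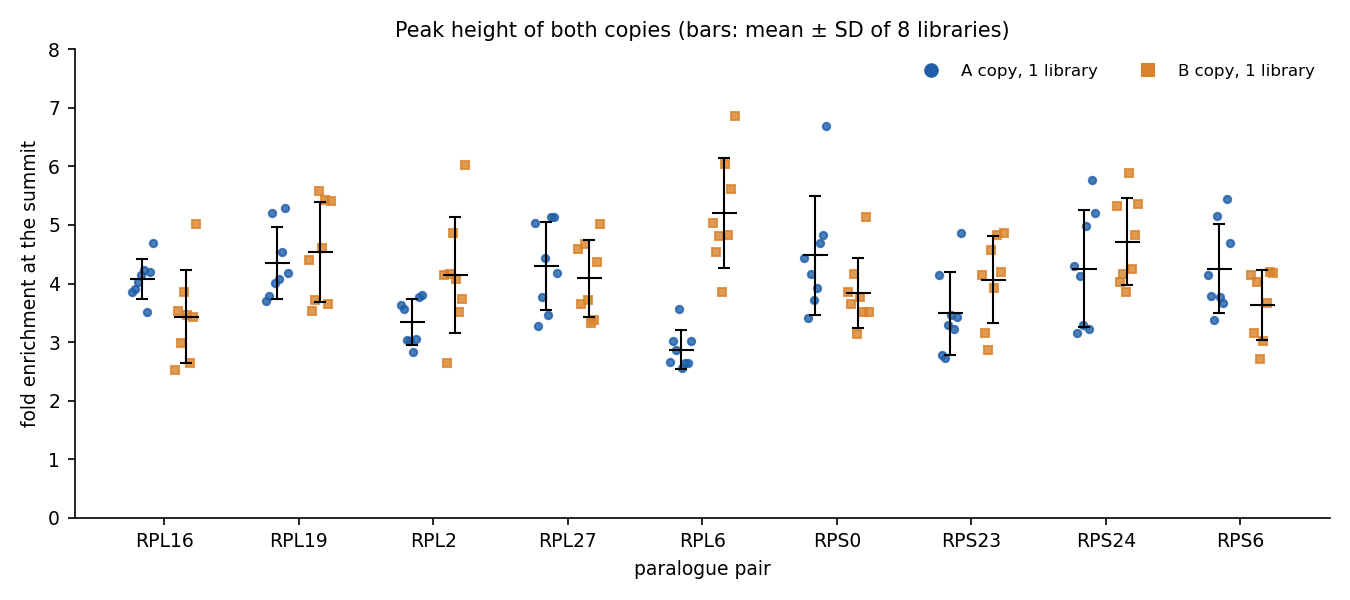
Fold enrichment at the summit of the A copy (circles) and the B copy (squares) in each of 8 libraries, for 9 of the 10 pairs with both copies found in every list. Black bars give mean ± SD, and only at *RPL6*, with 2.87 ± 0.33 for A and 5.20 ± 0.94 for B, does 1 copy lie above the other in every library.

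The comparison of episomal with integrated strains asks whether these promoters differ between strains that carry the foreign locus on its own molecule, in SC–Leu, and strains that carry it in chromosome XI, in YPD. By presence, no member was found in every list of either context while missing from all lists of the opposite one, where the share of all genes was 0.1%. The nearest to it were *RPL1B* and *RPL31B*, each with a peak in 1 of 4 episomal and 4 of 4 integrated lists. A surplus of 3 integrated lists was seen in these 2 of 137 members and in 52 of all 6002 genes. A surplus of 3 episomal lists was seen in 0 members and 29 of all genes. *RPL1B* was listed with 2.99, 3.72, 3.58 and 2.51-fold enrichment in the integrated libraries and 3.08 in *HPRT1R* episome clone 2. *RPL31B* was listed with 3.64, 4.86, 4.21 and 6.53 in the integrated libraries and 4.66 in *HPRT1* episome clone 2. Both would pass without that 1 episomal library. More members had more integrated lists (35) than more episomal lists (19), and so did all genes (821 and 554), beside the larger number of peaks in the integrated *HPRT1R* libraries. The part of list length in this was not tested.

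Peak height was compared next. Log2 fold enrichment was centred on the median of each library over the 262 promoters found in all 8 lists, and tested with limma with the locus as a covariate. Promoters missing from any list were left out, so this test cannot show a peak that is lost in 1 context. No promoter passed an adjusted p of 0.05 for context (0% of 262), and the smallest adjusted p was 0.33. Calls were made under 2 alternatives. Among peaks with −log10 q of at least 5, 2 of 97 promoters passed, 1 of them a member, but both are assigned the same peak. Without centring, 1 promoter passed, no member. At an unadjusted p under 0.05 there were 16 promoters (6.11%), of which 1 of 47 was a member. The median difference, integrated minus episomal, was −0.06 for the 47 members, with 32 lower and 15 higher, and −0.03 for all 262, with 153 lower and 109 higher. Without centring these medians were 0.10 and 0.13, so their sign is set by the centring. The counts of lower and higher promoters include a shared peak once for each of its genes. Single members ranged from −0.43 to 0.28, at a median standard error of 0.15 over the promoters tested.

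The member with the smallest p was *RPL41B*, which encodes a very short, basic protein of the large subunit. Of the 36-base stretches in its window, 92.7% occur once in the genome, and 41 are shared with the window of *RPL41A*. The fold enrichment of *RPL41B* was 4.15, 4.79, 3.51, 3.43, 4.83, 4.69, 4.05 and 4.35. After centring, the log2 values were 0.11, 0.44, −0.20, −0.17, 0.28, 0.25, −0.14 and −0.16. The episomal libraries were then all above the integrated ones, by 0.43 ± 0.14 (SE) on the log2 scale, with an unadjusted p of 0.0038 and an adjusted p of 0.33 (limma, Benjamini-Hochberg). It was the member that passed at the stricter q, with a difference of −0.45 and an adjusted p of 0.033 (limma), and over 15 alternatives its adjusted p ranged from 0.033 to 0.61. Among the 47 members, 2 showed no overlap between the contexts after centring, *RPL41B* among them, where the share of all 262 promoters was 3.44%. *RPL34B* (−0.28 ± 0.15), *RPL14A* (0.28 ± 0.16) and *RPS24B* (−0.26 ± 0.15, SE) were among the next, with adjusted p of 0.59 each (limma). The peak of *RPL41B* also lies in the promoter of *SRF1*, transcribed in the opposite direction, so that both genes count among those promoters. The 2 promoters that passed at the stricter q are this 1 peak, which thus entered the adjustment for each gene. Other shared peaks entered more than once too, such as those of *RPL13A* and *RPS16B*, *RPL39* and *RPS22A*, and *RPP2A* and *RPS15*. Of the 262 promoters, 118 had a summit that lay in the window of another gene in every list. A fit with each peak counted once was not run.

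**Figure D5:**
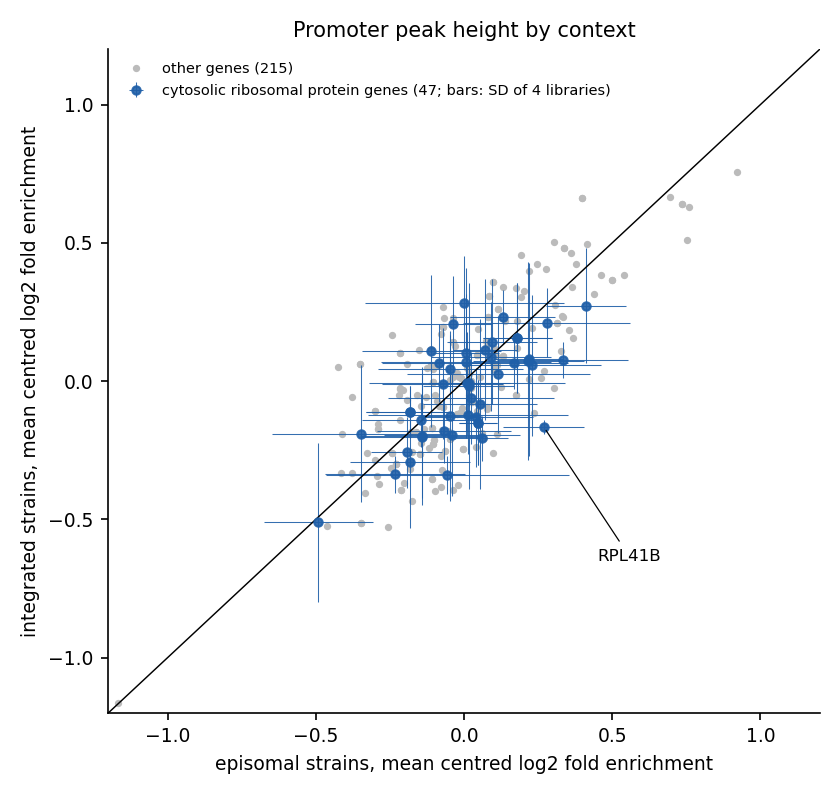
Mean centred log2 fold enrichment of the 4 episomal (horizontal) against the 4 integrated libraries (vertical) at the 262 promoters with a peak in all 8 lists, with 47 ribosomal protein genes in blue (bars, SD of 4 libraries) and other genes in grey. The line marks equal values, *RPL41B* lies below it with an adjusted p of 0.33, and 1 other gene lies outside the axes.

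The same fit compared the strains with *HPRT1R* and *HPRT1*. No promoter passed an adjusted p of 0.05 (0%), and the smallest adjusted p was 0.67. At an unadjusted p under 0.05 there were 14 promoters (5.34%), 2 of them members, *RPS14A* (−0.33 ± 0.14) and *RPL6A* (−0.32 ± 0.15, *HPRT1R* minus *HPRT1*, SE), each with an adjusted p of 0.84 (limma). The median difference was 0.01 for the members and −0.01 for all promoters, and 0.18 and 0.16 without centring. A test of whether the effect of context differs between the loci called 0 of 262 promoters, with 10 at an unadjusted p under 0.05, none of them a member. Over the 8 libraries, the SD of log2 fold enrichment was 0.24 by the median of the 47 members (0.12 to 0.35) and 0.25 by that of all 262 promoters.

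The genes that regulate or assist ribosomal protein production were mostly without a promoter peak. Of a list of 21, *HMO1*, for the high mobility group protein that binds many of these promoters, was the only one found in all 8 lists, with fold enrichments of 4.15, 3.53, 3.25, 3.72, 3.17, 3.08, 3.74 and 4.02. *ABF1* and *REB1*, for general regulatory factors, were found in 7 lists each, and *YAR1*, for a chaperone of a small subunit protein, in 3. *RAP1* was found in 1 list. Of the 21, 15 had none, including *FHL1*, *IFH1*, *SFP1*, *CRF1*, *SCH9*, *TOR1* and *TOR2*. In all, 6 of 21 (28.6%) were found in at least 1 list, close to the 32.1% of all genes.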

How the data were processed

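ATAC-seq peak lists of 8 yeast libraries were used, 1 list per clone. The authors trimmed 36-base paired reads, aligned them with Bowtie2 2.2.9 to sacCer3 plus the foreign DNA, which the lists name as sequences of their own. Peaks were called by the authors for each library with MACS2 2.1.0 on whole fragments, keeping duplicates and without a control. No shift to the transposase cut site is stated. The deposited lists give for each peak a score, a ratio (fold enrichment at the summit), the offset of the summit, and both p-value and q-value as −log10. The deposited score was not used. The files give no read totals.

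Fragments at the summit and local background were solved for from the deposited ratio and −log10 p-value, with a misfit of at most 0.001 for 99.3% to 99.6% of peaks. Since PCR copies were kept, the counting interval covers counting error only. Genes came from the RefSeq annotation of R64, and no nuclear peak extended past its chromosome. Promoter windows, nearest summits, motifs and 36-base uniqueness were computed in Python (3.11.15) using SciPy (1.17.1) and NumPy (2.4.6). Contexts and loci were compared with limma 3.58.1 in R 4.3.3, with 5 residual degrees of freedom per promoter and spread shared over promoters. The recovery of fragments and the limma fit were tested on simulated data. The clones are separate cultures, and clone numbers do not pair them across strains. Presence, offsets, percentiles, paralogue ratios and motifs are descriptions without a test.

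The members, lists and tests were chosen with earlier results of these data known. Named genes are the stalk genes, the 10 members with the highest mean percentile, members in no list or in 1 context only, split pairs, the 6 most and 3 least different pairs, the 5 members with the smallest p between contexts, the regulators, and members that share a summit. The genes *RPS8A*, *RPL1B*, *RPL31B*, *RPS14A* and *RPL6A*, and those listed by coding structure, were chosen for naming once their values had been seen. Some items under these rules are not reported here. The alternatives tried were stricter peaks, other windows and assignments, equal list lengths, other scales, a replicate block and each clone left out.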

Additional observations from a re-analysis of the deposited data

Results flagged for a closer look

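Library values and the named members were checked for a library that stands apart from the other 3 of its context, in 34 groups of 4, of which chance alone would flag about 1 in 20. Of these, 2 groups were flagged. In the episomal libraries, 81 members had a promoter peak in *HPRT1* clone 1 and 80 in each of the other three, a difference of 1 gene. For *RPS4B* in the integrated libraries, the fold enrichment was 6.19 in *HPRT1R* clone 2 and 4.57 to 4.83 in the rest. That library also had the lowest genome-wide background (4.97 fragments), and whether this bears on the value was not tested.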

How the results depend on the processing

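The count of 47 genes in all 8 lists went to 60 by peak overlap, 45 with lists of equal length and 67 with the window of 1000 bp (an alternative added after the data were seen), but to 20 at −log10 q of at least 5, 24 with the nearest coding start only and 0 with the window of 250 bp upstream to 50 bp downstream (19 of all genes). Under those settings pairs with both copies in all lists numbered 17 (overlap), 18 (1000 bp), 1 (stricter q), 5 (nearest) and 0 (250 bp). The mean of the median offsets was −282.2 bp (stricter q), −283.4 (overlap), −251.8 (nearest) and −201.4 (250 bp), and that of the median percentiles 53.2 (stricter q) and 56.9 (overlap). A Rap1 core was found in 12 members (8.76%) in the narrow window, against 2.83% of all genes. Without 1 clone, the gene count was 48 to 51, the pairs 10 to 12, the offset −270.1 to −263.6 bp, the percentile 62.8 to 64.1 and the median absolute log2 ratio of pairs 0.17 to 0.24. Members in 1 context only numbered 0 to 1 without 1 clone (*RPL31B* without *HPRT1* episome clone 2, *RPL1B* without *HPRT1R* episome clone 2) and 1 in the 250 bp window (*RPL19A*, episomal).

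For context, 2 of 97 promoters passed at the stricter q, *RPL41B* and *SRF1*, which share 1 peak. The difference at *RPL41B* was −0.45 (adjusted p 0.033, limma, of a range of 0.033 to 0.61 over 15 alternatives, all of the same sign). Without centring, 1 promoter, no member, passed, and the median of all promoters shifted to 0.13 and that of the members to 0.10. For locus, 3 promoters passed by overlap and 1 in the 250 bp window, none of them a member. With a replicate block, 0 promoters passed for either. The clone numbers share no culture, and correlations of same-numbered deviations were −0.05 to 0.03. Without 1 clone, 0 passed for either.

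Depth limits what can be seen: a summit of 26 fragments has an exact Poisson 95% interval of 17.0 to 38.1, and a peak under the threshold of the caller is not listed.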
